A study of Mus musculus with 8 samples.

Results

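The 9 genes Ptprd, Lrp1b, Sdk1, Lingo2, Tenm2, Kirrel3, Nrxn3, Gpc5 and Nrg3 code for adhesion and signalling proteins of the cell surface. They were followed through every cluster of cells in a single-cell RNA sequencing study of mouse dorsal root ganglia. They were taken by name from the authors' deposited table of cluster markers, in which all 9 occur among 9229 genes. They were chosen by their fold changes and shares of cells in that table, where several lead a neuron cluster, so these values are given as a description, with no test. The cells came from C57BL/6 mice aged 21 to 30 days, with the ganglia of 4 mice pooled per sample and no genetic change or drug named in the labels. A 30 min incubation of living cells with antibody against β5, a subunit of the proteasome, and 40 min with a fluorescent second antibody came before they were sorted into cells positive and negative for the neuronal membrane proteasome (NMP), which is proteasome exposed at the neuronal surface. The labels then cite a protocol for isolating nuclei and 3′ libraries of total RNA. The labels list 4 samples of each population, whose descriptions name sequencing lanes of 1 library, so there were no replicates, and the table does not say from which population a cell came.

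Synaptic adhesion proteins hold nerve cell membranes together and help to choose which cells form contacts. Neurexins and receptor phosphatases of the LAR type sit mainly on the sending side of a synapse and bind partners such as neuroligins and Slitrk proteins. Teneurins bind latrophilins, and Sidekick and Kirrel proteins, which carry immunoglobulin domains, bind copies of themselves on the neighbouring cell. Sensory neurons of the ganglion have their synapses in the spinal cord, and transcripts of these proteins are found in their cell bodies.

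The table gives, for each gene and cluster, the log2 of the fold by which the mean level in the cluster differs from that in the rest of the cells, and the share of positive cells on both sides. "Higher" and "lower" below mean a deposited adjusted p under 0.05 with that sign. Of the 180 possible pairs of a member and a cluster, 155 were listed, with 43 higher, 107 lower and 5 past neither. The median gene of the table was higher in 2 clusters and lower in 2. Each of the 9 genes was higher in 2 to 7 clusters and lower in 11 to 13. None of the 12 calls of lower for Gpc5 reached 0.5 on the log2 scale. The scale left little room for larger ones, as Unknown.6, with Gpc5 in 0.0% of its cells, was at -0.49.

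The clusters carry the authors' names. As solved from the table, 40.8% of cells lay in the 10 named neuron clusters, 28.6% in the 3 Low.UMI clusters (few transcript molecules per cell) and 30.7% in the 7 Unknown clusters. Of 6 general neuronal markers, the named neuron clusters had 1 to 5 higher and each Unknown cluster had all 6 lower. Each of the 7 Unknown clusters had 5 of 5 markers of a single non-neuronal cell type higher: Unknown.1 is endothelial-like, Unknown.2 satellite-glia-like, Unknown.3 mural-like, Unknown.4 Schwann-cell-like, Unknown.5 and Unknown.6 fibroblast-like, and Unknown.488p macrophage-like.

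The members are among the longest genes of the table. In the GENCODE M21 annotation (GRCm38) they spanned 551 to 2271 kb, against a median of 31.6 kb over the 9171 genes of the table with a span. All 9 were among the 209 genes over 500 kb, and Ptprd ranked second, Lrp1b 6 and Nrxn3 10 by span. All are annotated as protein-coding. Which annotation the authors used is not stated in the sources used here, and the deposited table holds no coordinates.

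Lingo2, Gpc5 and Nrg3 all had their largest fold change in the CGRP-e cluster, and the 250 bases before a start site of each are shown for that reason. The sequences are from RefSeq (GRCm38.p6), which gave promoters for 6 of the 9 genes. Each runs 5′ to 3′ on the strand of the gene, and capitals mark a match to a searched motif on either strand. The Gpc5 stretch lies at chr14:115091965-115092214 on the plus strand and that of Nrg3 at chr14:39473089-39473338 on the minus strand. That of Lingo2 lies at chr4:35845205-35845454 on the minus strand, before 1 of its 2 starts in that source. Both Lingo2 windows lie inside its GENCODE span (35706647 to 36951747), away from the 5′ end. The Lingo2 window shown is the 1 with a motif match.
Gpc5: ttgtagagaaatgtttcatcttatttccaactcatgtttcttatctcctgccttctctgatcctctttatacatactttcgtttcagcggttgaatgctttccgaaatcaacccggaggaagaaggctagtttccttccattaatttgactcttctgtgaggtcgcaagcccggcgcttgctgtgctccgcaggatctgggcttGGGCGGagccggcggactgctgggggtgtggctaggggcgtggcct
Lingo2: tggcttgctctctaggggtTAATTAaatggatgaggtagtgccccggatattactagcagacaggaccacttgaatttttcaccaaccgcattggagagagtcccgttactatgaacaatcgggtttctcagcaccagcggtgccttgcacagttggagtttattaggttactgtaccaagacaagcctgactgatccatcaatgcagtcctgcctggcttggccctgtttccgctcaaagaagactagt
Nrg3: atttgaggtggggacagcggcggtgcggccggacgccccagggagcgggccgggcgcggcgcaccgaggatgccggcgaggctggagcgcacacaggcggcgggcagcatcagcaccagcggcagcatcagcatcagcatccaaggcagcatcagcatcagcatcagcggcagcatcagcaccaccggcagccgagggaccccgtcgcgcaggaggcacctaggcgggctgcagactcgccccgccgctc
Their base composition differed, with G or C at 51.2% of positions for Gpc5, 48.4% for Lingo2 and 72.4% for Nrg3, beside a median of 52.4% over 32851 promoters. The window before the other Lingo2 start had 25.2% and no match to a searched motif. Shares of promoters with a motif are over windows that also hold the first bases after the start. Gpc5 held the GC box (GGGCGG, 32.7% of all promoters) and Lingo2 the homeodomain palindrome (TAATTA, 4.84%). The RUNX core (TGTGGT, 14.0%) and the cAMP response element (TGACGTCA, 1.55%) matched none of the 3. No searched motif was shared by these 3 windows.

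Ptprd codes for a LAR-type receptor phosphatase that organises the sending side of synapses. In the authors' deposited table it was found in 100% of CGRP-a cells and 27.3% of other cells, with a log2 fold change of 3.62, the largest of any gene listed for CGRP-a. It was also higher in CGRP-n (1.28, in 99.0% of cells), CGRP-e (1.11, in 99.2%) and CGRP-z (0.83, in 96.3%) in the authors' deposited table. It was therefore higher in all 4 CGRP clusters and in no other listed cluster. Because the other cells differ from comparison to comparison, levels were also put on 1 scale, the ratio of mean + 1 between clusters, which understates folds of low genes. On this scale CGRP-a exceeded CGRP-n by 2.91-fold and CGRP-e by 3.27-fold. Ptprd lies on chromosome 4 at 75941238 to 78211961, minus strand.

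Sdk1 and Lrp1b shared the leading cluster of Ptprd. Sdk1, a Sidekick adhesion protein, was in 99.5% of CGRP-a cells and 30.2% of other cells in the authors' deposited table (log2 fold change 2.35). It was next highest outside the neurons, in the Schwann-cell-like Unknown.4 (1.28, in 47.5% of cells against 35.0%), by the authors' deposited table. It was also higher in the satellite-glia-like Unknown.2 (0.44, in 51.4% against 33.8%) in the authors' deposited table. CGRP-a exceeded Unknown.4 by 1.67-fold in mean + 1, and Unknown.4 exceeded the next neuron cluster, Heat.sen, by 1.17-fold. The 2 glia-like clusters and Heat.sen (1.02), CGRP-z (0.98), CGRP-n (0.45) and CGRP-e (0.34) made up its 7 higher clusters with CGRP-a in the authors' deposited table. Sdk1 lies on chromosome 5 at 141241490 to 142215586, plus strand.

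Lrp1b codes for a very large endocytic receptor of the LDL receptor family. Its log2 fold change was 2.45 in CGRP-a (99.0% of cells against 20.7%), 1.16 in Non-peptidergic (99.0% against 22.5%) and 0.75 in Cold.sen (82.6% against 23.9%) in the authors' deposited table, and these were its only higher clusters. CGRP-a exceeded Non-peptidergic by 1.95-fold and Cold.sen by 2.50-fold in mean + 1. Unlike Ptprd, it was lower in CGRP-e (-0.28) although 51.0% of those cells had it against 25.3% of others, by the authors' deposited table. Lrp1b lies on chromosome 2 at 40595246 to 42653624, minus strand.

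Nrxn3 codes for a neurexin, a presynaptic organiser. The authors' deposited table gave it log2 fold changes of 2.00 (CGRP-a), 1.71 (CGRP-n), 0.67 (CGRP-e), 0.64 (CGRP-z) and 0.55 (SST), with 92.4 to 100% of the cells of these 5 clusters positive. The levels in CGRP-a and CGRP-n were close, at a ratio of 1.09, and both were about 2-fold above CGRP-z (2.11 and 1.94). Nrxn3 was the only member higher in SST, the cluster of itch neurons named for somatostatin. The gene has several promoters, and the deposited table gives 1 value for all of its transcripts. Nrxn3 lies on chromosome 12 at 88722876 to 90334935, plus strand.

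**Figure D1:**
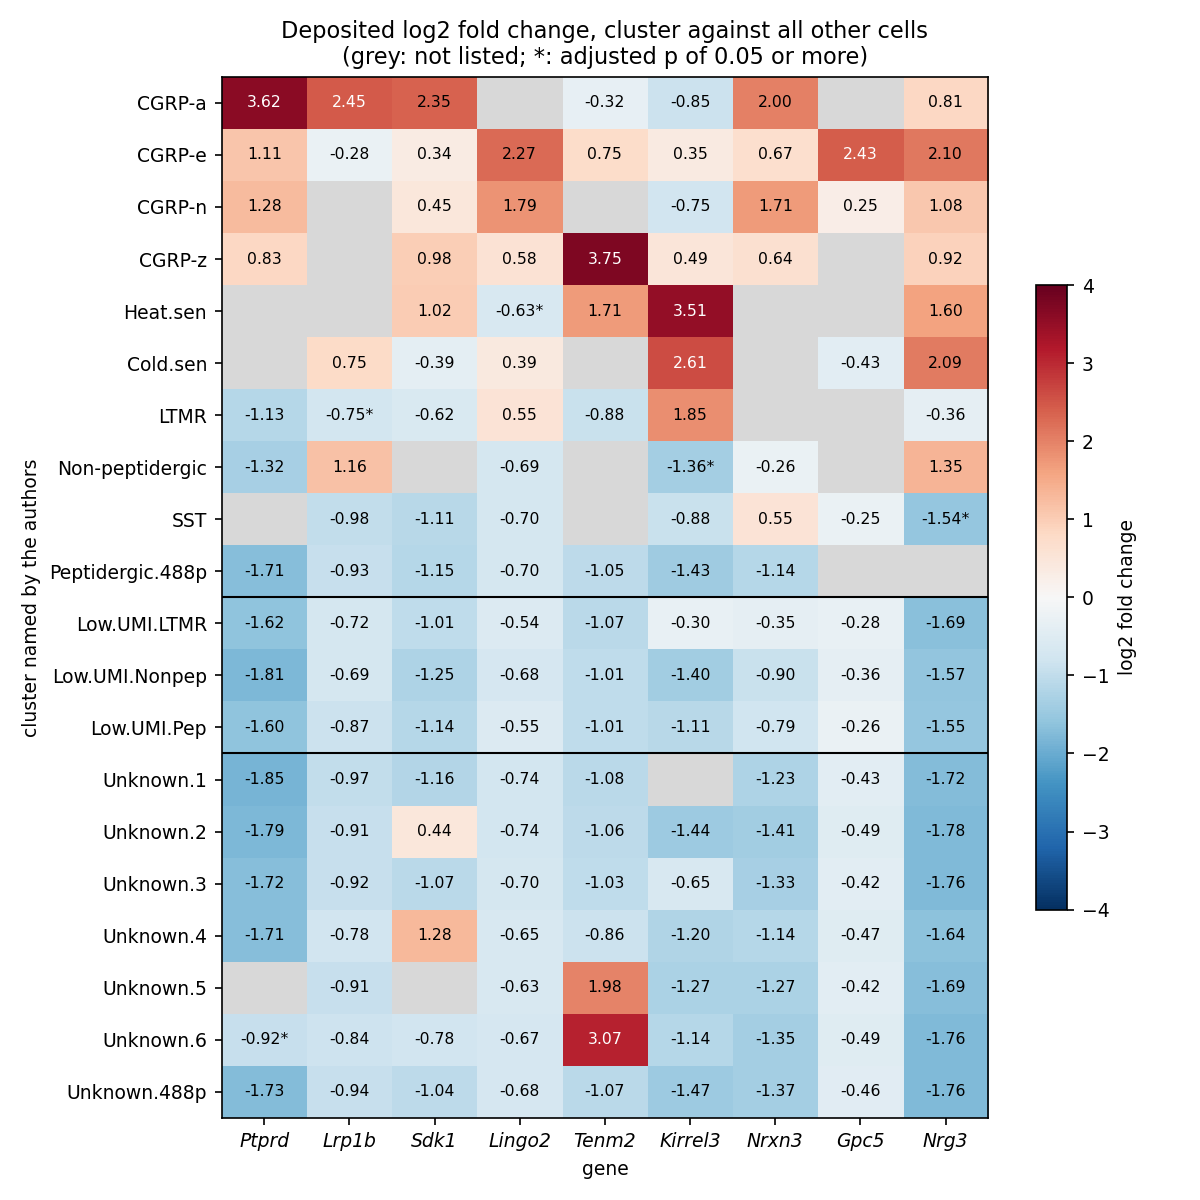
Deposited log2 fold change of each of the 9 genes (columns) in each of the 20 clusters (rows) against all other cells, with grey for pairs not listed and an asterisk for pairs with an adjusted p of 0.05 or more. Red entries are concentrated in the named neuron clusters above the first line, while all 27 entries of the 3 Low.UMI clusters are below 0.

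Lingo2, Gpc5 and Nrg3 had their largest fold change in CGRP-e, although Nrg3 was nearly the same in Cold.sen (2.10 and 2.09). Lingo2, a membrane protein with leucine-rich repeats and an immunoglobulin domain, was in 100% of CGRP-e cells and 16.7% of other cells in the authors' deposited table (log2 fold change 2.27). It was second in CGRP-n at 1.79 (98.7% of cells against 17.4%) in the authors' deposited table, 1.29-fold below CGRP-e in mean + 1. Smaller values were given for CGRP-z (0.58), LTMR (0.55) and Cold.sen (0.39) in the authors' deposited table. In CGRP-a Lingo2 was not listed, but the shares of all cells determine this single gap. The solved share was 47.8% of CGRP-a cells, at a level close to that of the other cells (log2 -0.02). Lingo2 lies on chromosome 4 at 35706647 to 36951747, minus strand.

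Gpc5, a glypican that carries heparan sulphate at the cell surface, had the narrowest pattern. It was in 97.8% of CGRP-e cells and 16.7% of other cells, with a log2 fold change of 2.43, the largest of any gene for CGRP-e in the authors' deposited table. Its other higher cluster, CGRP-n, had 0.25, with 66.8% of cells against 18.6%, in the authors' deposited table. CGRP-e exceeded CGRP-n by 3.79-fold in mean + 1. In SST 50.1% of cells had Gpc5 against 18.6% of others, yet it was lower there (-0.25) in the authors' deposited table. Gpc5 was not listed for 6 clusters, which held 22.1% of cells and had it in 40.4% of cells on average. Gpc5 lies on chromosome 14 at 115092215 to 116525179, plus strand.

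Nrg3, a neuregulin whose EGF-like domain binds the receptor ErbB4, was higher in 7 clusters, as many as Sdk1, and all 7 were named neuron clusters. The authors' deposited table gave 2.10 (CGRP-e), 2.09 (Cold.sen), 1.60 (Heat.sen), 1.35 (Non-peptidergic), 1.08 (CGRP-n), 0.92 (CGRP-z) and 0.81 (CGRP-a). It was in 99.1 to 100% of the cells of these 7 clusters and in 31.5 to 35.8% of other cells in the authors' deposited table. In mean + 1, Cold.sen and CGRP-e were equal (ratio 1.00) and Heat.sen was 1.26-fold lower than Cold.sen. The antisense gene Nrg3os lies within the Nrg3 locus and was higher in CGRP-e (0.32), Cold.sen (0.29) and Non-peptidergic (0.28) in the authors' deposited table. The sources used here do not say whether reads were counted by strand, so these 2 genes may share reads. Nrg3 lies on chromosome 14 at 38368952 to 39473088, minus strand.

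Tenm2 codes for a teneurin. In the authors' deposited table it led CGRP-z, with a log2 fold change of 3.75 and 97.2% of cells against 22.9%. The next cluster was fibroblast-like: Unknown.6 had it in 85.8% of cells against 22.8% (3.07), and Unknown.5 in a share 26.7 points above that of other cells (1.98), in the authors' deposited table. Heat.sen (1.71, in 91.8% of cells) and CGRP-e (0.75, in 75.1%) were also higher in the authors' deposited table. CGRP-z exceeded Unknown.6 by 1.55-fold, Unknown.5 by 3.13-fold and Heat.sen by 3.61-fold in mean + 1. Tenm2 thus stood at a higher level in fibroblast-like Unknown.6 than in any listed neuron cluster but CGRP-z. Tenm2 lies on chromosome 11 at 36006656 to 37235964, minus strand.

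Kirrel3, an adhesion protein of the nephrin family, marked neurons outside the CGRP group. Heat.sen had it in 100% of cells against 34.6% (log2 fold change 3.51), Cold.sen in 96.2% against 32.6% (2.61) and LTMR, the low-threshold touch neurons, in 100% against 32.7% (1.85) in the authors' deposited table. Smaller values were given for CGRP-z (0.49) and CGRP-e (0.35), while CGRP-a (-0.85) and CGRP-n (-0.75) were lower in the authors' deposited table. Heat.sen exceeded Cold.sen by 2.03-fold, LTMR by 3.10-fold and CGRP-z by 7.25-fold in mean + 1. Kirrel3 lies on chromosome 9 at 34485894 to 35036716, plus strand.

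For 4 members a level could be read, since a cluster with the gene in 0.0% of its cells fixes the zero of the scale. This assumes that the deposited fold changes are ratios of mean normalized count + 1, which cannot be checked here. On that assumption the levels are in the normalized counts per cell of the authors, whose scaling total is unknown here. With another added constant, all levels of a gene would change by the same factor, so only comparisons within a gene are made. Kirrel3 came to 26.6 in Heat.sen, 12.6 in Cold.sen, 7.91 in LTMR, and to 2.81 (CGRP-z), 2.44 (CGRP-e), 0.65 (CGRP-n) and 0.57 (CGRP-a) in the CGRP clusters. Its endothelial-like gap, Unknown.1, was solved at 1.49, with 26.9% of cells, above the 0.0 to 14.5% of cells in the other Unknown clusters. The Kirrel3 level in the touch-type Low.UMI.LTMR cells was 1.23, the highest of the 3 Low.UMI clusters (0.37 in Low.UMI.Pep and 0.11 in Low.UMI.Nonpep).

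Tenm2 came to 22.9 in CGRP-z, 14.4 in Unknown.6, 6.63 in Unknown.5, 5.61 in Heat.sen and 2.38 in CGRP-e, and to 0.69 in CGRP-a. Nrg3 came to 11.5 in both Cold.sen and CGRP-e, 8.94 in Heat.sen, 6.90 in Non-peptidergic, 5.81 in CGRP-n, 5.26 in CGRP-z, 4.57 in CGRP-a and 1.63 in LTMR. Peptidergic.488p, the single cluster without a listed Nrg3 value, was solved at 2.05, with 33.8% of cells. Gpc5 came to 5.25 in CGRP-e and 0.65 in CGRP-n. With no replicate libraries, no spread can be attached to these levels, and neighbours in each order cannot be told apart by replicate error.

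**Figure D2:**
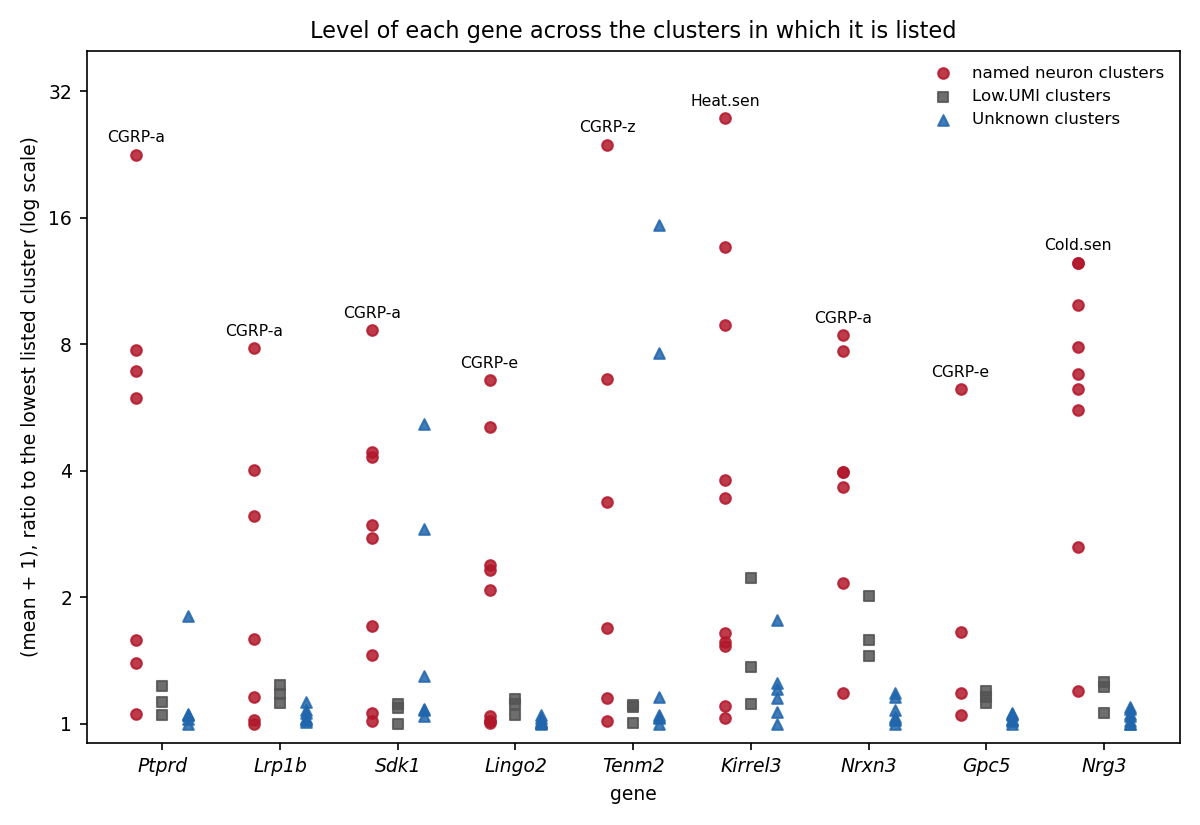
Mean + 1 of each gene in each listed cluster, divided by that of its lowest listed cluster, on a log scale, with the highest cluster named. Ptprd, Tenm2 and Kirrel3 span 22.6-, 23.9- and 27.6-fold, and the blue triangles standing apart are Unknown.4 and Unknown.2 for Sdk1 and Unknown.6 and Unknown.5 for Tenm2.

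By cluster, the counts can be set against all genes of the table, although the choice of the members fixes part of them. CGRP-e had 8 of 9 members higher (all genes: 9.77%) and 1 lower (5.65%). CGRP-z had 7 higher (11.3%) and 0 lower (0.715%), and CGRP-n 6 higher (9.61%) and 1 lower (4.32%). CGRP-a had 5 higher (12.5%) and 2 lower (7.26%). Heat.sen had 4 higher (12.6%) and 0 lower (1.18%), and Cold.sen 4 higher (11%) and 2 lower (5.44%). These 6 clusters held 34 of the 43 higher pairs.

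The other named neuron clusters had few members higher. LTMR had 2 higher (12.5% of all genes) and 4 lower (8.46%), Non-peptidergic 2 higher (9.86%) and 3 lower (9.71%), and SST 1 higher (12.5%) and 5 lower (10.7%). Peptidergic.488p, although named for peptidergic neurons, had 0 higher (7.05%) and 7 lower (13.8%), with the listed members in 9.1 to 25.1% of its cells. Of the 6 general neuronal markers, 4 were higher and 1 lower in this cluster, at 51.1 to 100% of its cells. Their part in the members' values was not tested.

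In the Low.UMI clusters all 9 members were lower in each, although in Low.UMI.LTMR only 4 of them at an adjusted p under 1e-10. That p has cells as its units, and Low.UMI.LTMR held 2.92% of cells, beside 11.6% in Low.UMI.Nonpep and 14.1% in Low.UMI.Pep. The share of all genes lower was 20.1% in Low.UMI.LTMR, 21% in Low.UMI.Nonpep and 20.7% in Low.UMI.Pep, and the share higher was 10.9%, 10.9% and 10.8%, with 0 members. Members were found in 1.3 to 13.5% of Low.UMI.LTMR cells, 0.5 to 6.0% of Low.UMI.Nonpep cells and 1.4 to 7.9% of Low.UMI.Pep cells in the authors' deposited table. General neuronal markers were higher in these clusters, 3, 4 (with 1 lower) and 6 of 6 in the same order. Ptprd, in 96.3 to 100% of the cells of the CGRP clusters, was in 4.1% of Low.UMI.Pep cells in the authors' deposited table. Lrp1b and Nrg3, in 99.0% and 100% of Non-peptidergic cells, were in 3.7% and 3.8% of Low.UMI.Nonpep cells in the authors' deposited table. Few transcripts per cell name these clusters, and the part of depth in their low shares was not tested.

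Among the non-neuronal clusters, 0 members were higher in Unknown.1 (18% of all genes), Unknown.3 (8.05%) and Unknown.488p (9.91%). A single member was higher in each of the others, Sdk1 in Unknown.2 (13% of all genes) and Unknown.4 (5.21%), and Tenm2 in Unknown.5 (9.67%) and Unknown.6 (7.39%). The members lower numbered 8 in Unknown.1 (28.8% of all genes), 8 in Unknown.2 (27.4%), 9 in Unknown.3 (28.4%) and 8 in Unknown.4 (26.4%). They numbered 6 in Unknown.5 (20.4%), 7 in Unknown.6 (25.5%) and 9 in Unknown.488p (33%). In macrophage-like Unknown.488p, a cluster of immune cells, members were in 0.0 to 5.5% of cells. How far shares of that size are background was not tested. Neither the number of cells nor their depth is given, so no interval was attached to these shares. In mural-like Unknown.3, Kirrel3 was in 14.5% of cells, and in fibroblast-like Unknown.6 Ptprd was in 19.1%, both with a log2 fold change below 0 (-0.65 and -0.92, the latter not past the filter) in the authors' deposited table.

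Share of cells and fold change went opposite ways for 16 of the 155 listed pairs (10.3%, beside 17.1% of all listed pairs). All 16 lay in named neuron clusters, and in each the gene was detected more widely inside the cluster than outside it while its mean level was lower. Kirrel3 in SST was in 85.5% of cells against 32.3%, at a log2 fold change of -0.88, in the authors' deposited table. Its level there was 0.53 normalized counts, against 7.91 in LTMR with 100% of cells. Nrg3 in LTMR (95.5% of cells, -0.36), Nrxn3 in Non-peptidergic (98.1%, -0.26), Sdk1 in LTMR (84.1%, -0.62) and Ptprd in LTMR (80.9%, -1.13) were of the same kind in the authors' deposited table. For these pairs a call of lower does not mean that few cells had the gene.

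**Figure D3:**
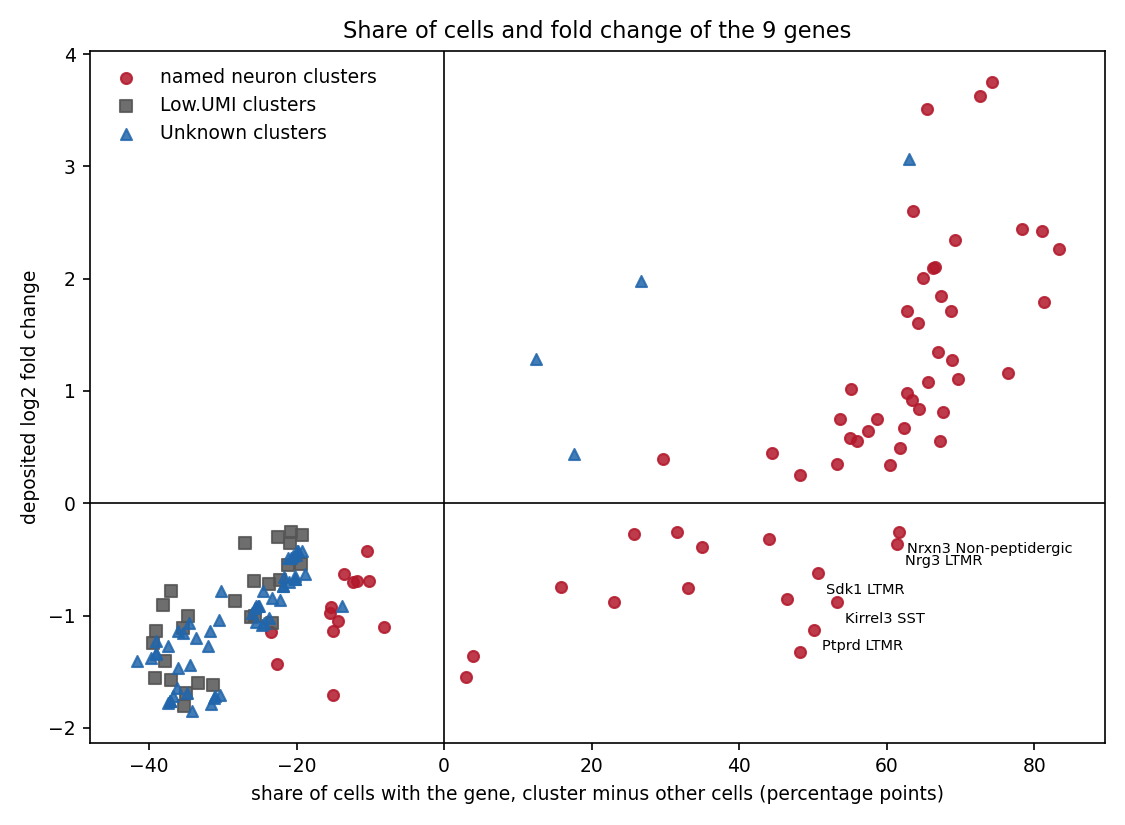
Difference in the share of cells with a gene (cluster minus other cells, percentage points) against the deposited log2 fold change for the 155 listed pairs. The 16 points at the lower right, all from named neuron clusters, have a larger share of positive cells and a lower mean level.

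Not being listed did not always mean a mean level close to that of other cells. Ptprd was not listed in Cold.sen, Heat.sen, SST and Unknown.5, which together held 13.9% of cells. Their average was solved at 43.0% of cells with Ptprd, above the 32.7% of all cells, but at 0.44 of the overall mean + 1. The 3 clusters without Lrp1b (CGRP-n, CGRP-z and Heat.sen) averaged 56.6% of cells at 0.99 of the overall level. Those without Nrxn3 (Cold.sen, Heat.sen and LTMR) averaged 86.8% of cells at 1.09. The clusters without Sdk1 averaged 40.9% of cells (0.64), those without Tenm2 39.9% (0.66) and those without Gpc5 40.4% (0.91). The single gaps of Lingo2, Kirrel3 and Nrg3 were solved at log2 fold changes of -0.02, -0.15 and -0.14, close to other cells.

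The span of a gene went together with its calls across the whole table. In Low.UMI.Pep 8.69% of the genes up to 10 kb were lower, and 76.1% of the 209 genes over 500 kb, which include the 9 members. In Low.UMI.Nonpep the shares were 10.6% and 70.3%, in Low.UMI.LTMR 12.9% and 63.6%, and in Peptidergic.488p 9.04% and 33.5%. The direction was the opposite for calls of higher in the CGRP, heat and cold clusters. In CGRP-e 5.42% of genes up to 10 kb and 41.1% of genes over 500 kb were higher, in Cold.sen 7.13% and 50.2%, and in Heat.sen 7.33% and 47.8%. Beside long genes, the 9 of 9 lower members in each Low.UMI cluster stand against 63.6 to 76.1%. The higher members stand against 41.1% in CGRP-e (8 of 9), 45.0% in CGRP-z (7), 43.5% in CGRP-n (6) and 41.1% in CGRP-a (5). In Cold.sen (4 of 9, against 50.2%) and Heat.sen (4 of 9, against 47.8%) the members' shares were below those of long genes. The members were chosen by these fold changes and are among the 209 genes. These comparisons therefore cannot show that the members differ from other long genes. The part of gene length in the members' values was not tested.

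**Figure D4:**
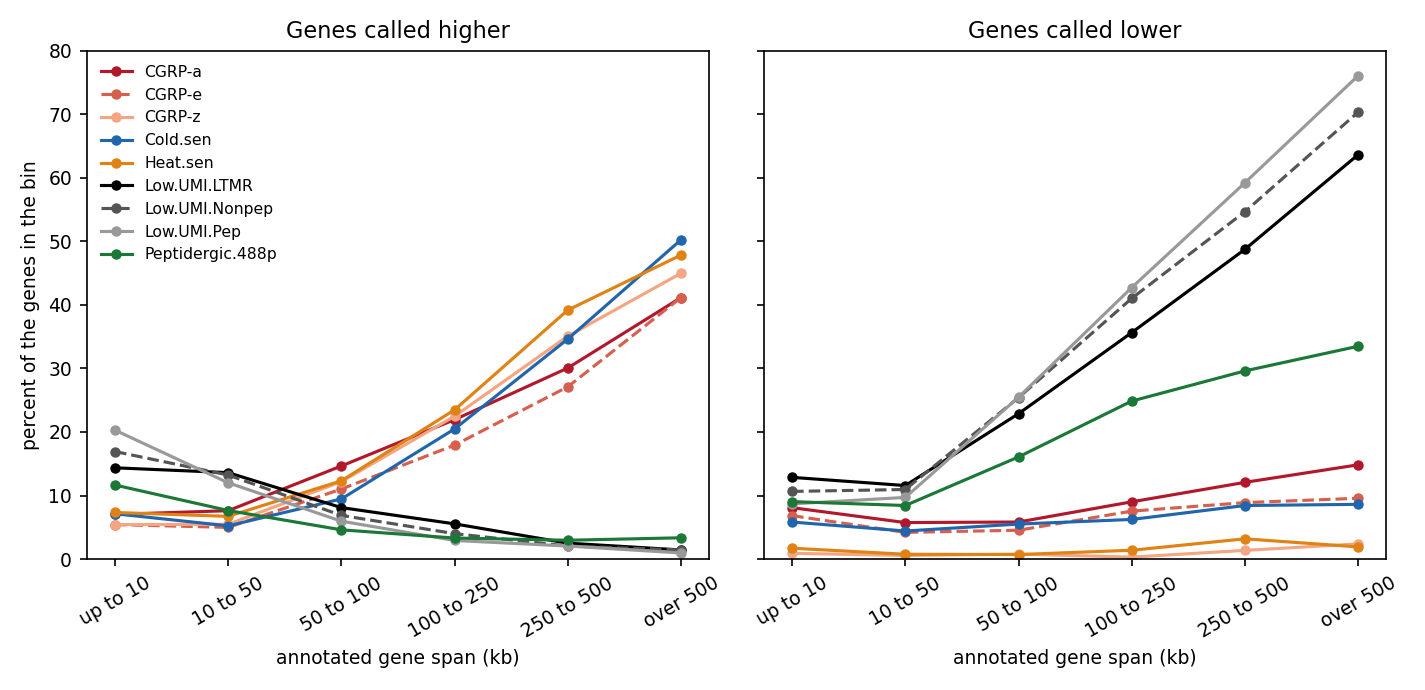
Percent of genes called higher (left) or lower (right) in 9 of the clusters, by annotated gene span in 6 bins. In the 3 Low.UMI clusters the share called lower climbs to 63.6 to 76.1% over 500 kb, where all 9 members lie, and in the CGRP, cold and heat clusters drawn the share called higher reaches 41.1 to 50.2%.

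The members differed in how alike their patterns were. Over the 36 pairs of members, Pearson's r of the log2 fold changes ran from 0.04 to 0.93 with a median of 0.55, each over 11 to 18 shared clusters. Ptprd and Nrxn3 (0.93 over 15 clusters), Ptprd and Lingo2 (0.92 over 15) and Lingo2 and Gpc5 (0.84 over 14) had the highest r. The r of Ptprd and Lingo2 leaves out CGRP-a, where Ptprd leads and Lingo2 is not listed (solved log2 -0.02). Lrp1b and Tenm2 (0.04 over 14) were the least alike. Tenm2 had r of at most 0.43 with any other member. The clusters share the same other cells and the same libraries, and the low values in the Unknown and Low.UMI clusters are common to the members, so these are descriptions.

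For each member the 3 genes with the highest r were taken. Kcnip1 (r = 0.98), Stxbp5l (0.98) and Kcnq5 (0.96), each over 14 clusters, were nearest to Ptprd. Kcnip1 and Kcnq5 code for potassium channel subunits, and in the authors' deposited table both had their largest fold change in CGRP-a (1.57 and 2.31). Cntnap2, a neurexin relative of the axonal membrane (0.97 over 15 clusters), Epb41l3 (0.95) and Smad1 (0.95) were nearest to Nrxn3. Lrp1b was nearest to the glutamate receptor gene Gria1 (0.94), Brinp1 (0.93) and Rgs7 (0.88), and Sdk1 to Zfp536 (0.90), the channel gene Trpm3 (0.89) and Agap1 (0.84).

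Lingo2 was nearest to the neuropeptide gene Cartpt (0.86), Pde4dip (0.81) and Brinp1 (0.81), and Gpc5 to Htatip2 (0.92), Kcnq5 (0.92) and Clgn (0.91). Htatip2 and Clgn are not listed in CGRP-e, the one cluster where Gpc5 has a large fold change, so their r leaves it out. In the authors' deposited table Kcnq5 led in CGRP-a (2.31), where Gpc5 is not listed, and had 0.87 in CGRP-e. Nrg3 was nearest to Agbl4 (0.97), the phosphodiesterase gene Pde11a (0.97) and Fmn1 (0.96). Among the genes nearest to Kirrel3 were Thsd7b (0.87) and Rprm (0.84), and Thsd7b was in 100% of Heat.sen cells against 19.9% with a log2 fold change of 3.71 in the authors' deposited table. The genes nearest to Tenm2 led outside CGRP-z. Abi3bp (0.93) and Sulf1 (0.92), both of the extracellular matrix, had their largest fold change in Unknown.6 (2.68 and 2.47) in the authors' deposited table, and Runx1t1 (0.90) led in another cluster, Cold.sen (1.39). With Spearman's rank correlation only 3 of these 27 places were kept. Of the 27, 5 had no value in the leading cluster of their member, Htatip2 and Clgn (Gpc5), Zfp536 (Sdk1), Abi3bp (Tenm2) and Agbl4 (Nrg3), and their r leaves that cluster out.

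The wider families were followed with 8 lists holding 129 genes. The table has 104 of them, and 95 of these are other than the 9. Of these 95, 38 (40.0%) were higher in Cold.sen (11% of all genes), 38 (40.0%) in Heat.sen (12.6%), 31 (32.6%) in CGRP-n (9.61%), 25 (26.3%) in CGRP-z (11.3%), 21 (22.1%) in CGRP-a (12.5%) and 19 (20.0%) in CGRP-e (9.77%). Those lower in the same order numbered 4 (4.21%, beside 5.44% of all genes), 0 (1.18%), 4 (4.21%, beside 4.32%), 1 (1.05%, beside 0.715%), 8 (8.42%, beside 7.26%) and 5 (5.26%, beside 5.65%). The shares lower in these clusters were thus near those of all genes. In Low.UMI.Pep 42 (44.2%) were lower (20.7% of all genes) and 4 (4.21%) higher (10.8%), and in Low.UMI.Nonpep 39 (41.1%) lower (21%) and 2 (2.11%) higher (10.9%). In Low.UMI.LTMR 29 (30.5%) were lower (20.1% of all genes) and 8 (8.42%) higher, near the 10.9% of all genes. In Peptidergic.488p 20 (21.1%) were lower (13.8%) and 2 (2.11%) higher (7.05%). The median log2 fold change of the 95 was 0.79 in Heat.sen and 0.77 in Cold.sen, beside 0.33 and 0.26 over all listed genes. In Low.UMI.Pep it was -0.48, beside -0.32. Of all genes of 250 to 500 kb, 34.6% were higher in Cold.sen and 39.2% in Heat.sen, and 59.2% were lower in Low.UMI.Pep. The spans of the 95 were not compared with those of other genes. The part of gene length in the counts of these lists was not tested.

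Some close relatives of a member led other clusters than the member did. Tenm1 led in Cold.sen (2.25, in 99.7% of cells), where Tenm2 was not listed, by the authors' deposited table. Tenm4 had 1.30 in Heat.sen, where Tenm2 was also higher, and 1.16 in CGRP-a, where Tenm2 was lower, in the authors' deposited table. Nrg1 was highest in CGRP-z (2.00) and reached 1.45 in the Cold.sen cluster in the authors' deposited table. Lingo1, whose cluster was singled out after its values were seen, was higher in LTMR (1.08, in 100% of cells against 18.1%) in the authors' deposited table, where Lingo2 was at 0.55. Sdk2, also named after its values were seen, was in 99.7% of LTMR cells against 7.4% (1.07) in the authors' deposited table, where Sdk1 was lower.

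Several immunoglobulin-domain genes stood beside Kirrel3 in Heat.sen. Lsamp (3.11), Ncam2 (2.62), Ntm (2.18) and Opcml (2.02), adhesion proteins of the neuronal surface, were higher there in the authors' deposited table. Of that list's 31 genes in the table, members included, 20 were higher in each of Heat.sen (all genes: 12.6%), Cold.sen (11%) and CGRP-n (9.61%). Those lower in the same order numbered 0 (1.18%), 2 (5.44%) and 2 (4.32%). Of the 10 teneurins, latrophilins and FLRT proteins, Tenm2 included, 7 were higher in CGRP-z (11.3% of all genes) and 0 lower (0.715%). In CGRP-a 7 were higher (12.5%) and 2 lower (7.26%). Of the 9 glypicans and syndecans, 1 was higher in CGRP-e, Gpc5 itself, which is near the 9.77% of all genes. In the same cluster 3 were lower (5.65%).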

How the data were processed

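RNA of sorted dorsal root ganglion cells was measured by droplet single-cell sequencing with 3′ end counting. The submitters' processing notes name Seurat, and the aligner, genome build, annotation, cell filters, treatment of doublets and normalization are not stated in the sources used here. Per the file headers, the authors deposited a p-value, an adjusted p-value, a log2 fold change and 2 fractions of cells for each gene and cluster, 56694 pairs in all, without samples. No p exceeds 0.01, no absolute log2 fold change is under 0.25 and the larger fraction is at least 10% in every pair. The adjusted p-value is the deposited p times 32285. Fractions are printed as percent. Depth per cell and cell numbers are not given, and the 8 samples could not be told apart.

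Calls use the deposited adjusted p under 0.05 as a filter only, since cells are its units. The share of cells in each cluster came from a least-squares solution over 6742 genes with differences of at least 5 percentage points (residual 0.0256 points, 0.0289 expected from rounding). With these shares each fold change was turned into the cluster's mean + 1 over that of all cells, the added 1 being assumed. Weighted sums over the 20 clusters were 1.00 for each of the 34 genes listed in all, which would hold for any added constant. Leaving out each cluster in turn recovered its level within 2.75% and its share of cells within 2.04 points. These steps were tested on simulated data. Likeness is Pearson's r over at least 12 shared clusters and 80% of the member's clusters, with 3 genes named per member, leaving out predicted genes. Relatives named are at most 5 per list by size of fold change in the leading cluster of the list's member or in a cluster they lead. The members, lists and rules were chosen with earlier results of these data known, and the bins of gene span and the zero of the level scale after these values were seen. The lengths of proteins were not analysed here, and 2 genes that the naming rule selects are not reported here. Python 3.11.15, numpy 2.4.6 and pandas 2.3.3 were used.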

Additional observations from a re-analysis of the deposited data

How the results depend on the processing

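Of the 43 higher and 107 lower pairs of member and cluster, 25 and 53 remained at an absolute log2 fold change of at least 1. Both totals stayed within 1.5 times under the other alternatives, which were a fold change of at least 0.5, a share of cells in the same direction and an adjusted p under 1e-10. Counts of single members moved more. With a minimum of 0.5 on the log2 scale, Gpc5 went from 12 to 0 lower and from 2 to 1 higher clusters. The scale left little room for lower calls of Gpc5, as its value was -0.49 with 0.0% of cells in Unknown.6. Sdk1 went from 7 to 4 higher and Kirrel3 from 5 to 3 higher. At an adjusted p under 1e-10, Lingo2 went from 13 to 5 lower, Lrp1b from 13 to 7, Gpc5 from 12 to 6 and Tenm2 from 11 to 7. Of the 9 members lower in Low.UMI.LTMR, 6 remained at 0.5 and 4 at 1e-10, and in each of the other Low.UMI clusters 8 and 9. Low.UMI.LTMR held fewer cells than the other Low.UMI clusters, and cells are the units of the adjusted p. Over the 104 list genes, the 9 members included, 352 pairs were higher and 600 lower, and 357 were lower at that minimum of 0.5. Ranked by the difference in share of cells, Kirrel3 led in LTMR (log2 fold change 1.85) and Nrg3 in CGRP-a (0.81), and ranked by relative level Nrg3 led in Cold.sen (2.09). The other 7 members kept their leading cluster under both rankings. With Spearman correlation 3 of the 27 most similar genes were kept, and 24 on the log2 of the relative level. Cluster shares moved by at most 0.00186 percentage points with a minimum difference of 20 points. No paired analysis was possible because the table has no samples and the numbers in the labels mark lanes of 1 library. Depth limits the shares of cells, and it is unknown here.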

Other observations

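Some genes of the same lists were higher in non-neuronal clusters. Of the 95 genes, 33 (34.7%, beside 13% of all genes) were higher and 26 (27.4%, as over all genes) lower in satellite-glia-like Unknown.2. In the other Unknown clusters more were lower than higher. Unknown.5 had 14 higher (14.7%, beside 9.67% of all genes) and 39 lower (41.1%, beside 20.4%), Unknown.6 had 9 (9.47%, beside 7.39%) and 33 (34.7%, beside 25.5%), and Unknown.4 had 8 (8.42%, beside 5.21%) and 38 (40.0%, beside 26.4%). Unknown.3 had 6 (6.32%, beside 8.05%) and 45 (47.4%, beside 28.4%), Unknown.1 had 3 (3.16%, beside 18%) and 57 (60.0%, beside 28.8%), and Unknown.488p had 3 (3.16%, beside 9.91%) and 53 (55.8%, beside 33%). Among those higher in Unknown.2 in the authors' deposited table were Lrrc4c (log2 fold change 2.34, in 84.8% of cells against 29.0%), Sdc4 (2.23), Adgrl3 (2.01), Il1rapl1 (1.59), Nlgn1 (1.48, in 48.0% against 8.4%) and Vldlr (1.35). Fibroblast-like Unknown.6 had Gpc3 (3.93, in 96.5% against 10.5%), Egfr (2.95) and Lrp1 (2.24) in the authors' deposited table. In Unknown.5 the authors' deposited table gave Gpc6 (2.85) and the netrin-G gene Ntng1 (2.61, in 47.4% of cells against 2.4%). Gpc5, Gpc3 and Gpc6 thus had their largest fold change in different clusters, CGRP-e, Unknown.6 and Unknown.5. Gpc6 was also higher in mural-like Unknown.3 (2.13), Heat.sen (1.53), Unknown.2 (1.00) and Unknown.6 (0.82) in the authors' deposited table. In its other listed clusters Gpc6 was lower or past neither. Schwann-cell-like Unknown.4 had Lrrtm4 (1.93), Erbb3 (1.26), a receptor for neuregulins, and Tenm3 (1.16) in the authors' deposited table. Erbb3 (1.26, in 53.7% of cells) and Tenm3 (1.67, in 74.1%) were also higher in satellite-glia-like Unknown.2 in the authors' deposited table. Kirrel, the paralog of Kirrel3, named here after its values were seen, was higher in Unknown.2 (0.93), Unknown.6 (0.69), Unknown.5 (0.67) and Unknown.3 (0.51) in the authors' deposited table, where Kirrel3 was lower in each.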
